A study of Schizosaccharomyces pombe with 2 samples.

Results

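The subtelomeric genes of chromosome I in fission yeast, Schizosaccharomyces pombe, were compared between a wild-type and a ppr10 deletion library. They were the rows of 7 cosmids, the cloned stretches of the genome that give the genes their systematic names. Reading inward from the left end these are SPAC212, SPAC977 and SPAC1F8, and inward from the right end SPAC750, SPAC186, SPAC869 and SPAC1039. These cosmids held 63 rows of the deposited table, and 10 were left out by name, namely cell-surface glycoproteins, uptake genes for siderophores and haem, and a few carbon metabolism genes. The remaining 53 of 5076 genes were the members, 20 at the left end and 33 at the right. Members were proposed with the differences between these 2 libraries in view, so every count below is a description of the libraries and supports no claim about the set.

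Both libraries came from cultures in logarithmic growth, 1 with the wild-type genotype and 1 with ppr10 deleted. The gene ppr10 encodes a mitochondrial protein with pentatricopeptide repeats, a motif of RNA-binding proteins in organelles. Strain background, mating type, medium and the number of clones behind the deletion strain were not stated in the labels. With 1 library per genotype, the spread between cultures is unknown for every value, and no test was made. A culture is also a mixture of cells, and fewer cells that express a gene cannot be told apart from less RNA per cell.

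Chromosome ends in fission yeast are packed into silent chromatin. The telomere-binding protein Taz1 and RNA interference at telomere-linked helicase genes bring in the histone methyltransferase Clr4, and the HP1 protein Swi6 then binds the methylated histones. Further inward lies a condensed stretch that depends on the shugoshin Sgo2 and on the histone methyltransferase Set2. Genes in these zones are mostly weakly expressed in growing cells, many respond to starvation or stress, and parts of the ends of chromosomes I and II are near-copies of each other.

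The wild type had 17.1 M uniquely mapped gene reads, and the deletion had 16.9 M reads. The deleted gene had 1879 wild-type and 12 deletion reads (71.2 against 0.459 RPKM, reads scaled to gene length and library size). The library labels and the deleted gene therefore went the same way. All 53 members matched the later reference annotation by systematic name, and for 52 the listed length equalled the annotated coding length.

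The members were mostly quiet in both libraries. Their median level was 5.55 RPKM for wild type against 4.21 for the deletion, where the medians of all 5076 genes were 67.1 and 72.8. Of the 53 members, 16 (30.2%) had fewer than 10 reads in each library, against 1.67% of all genes. A mean of at least 1 RPKM was reached by 34 members, and 32 of these were at that level in both libraries. The other two, SPAC212.08c and SPAC212.01c, reached it only through the library in which they were higher. Only 4 members exceeded 100 RPKM in wild type, and 6 did in the deletion. In the plot of levels along the chromosome, strongly expressed members stood next to members with almost no reads.

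**Figure D1:**
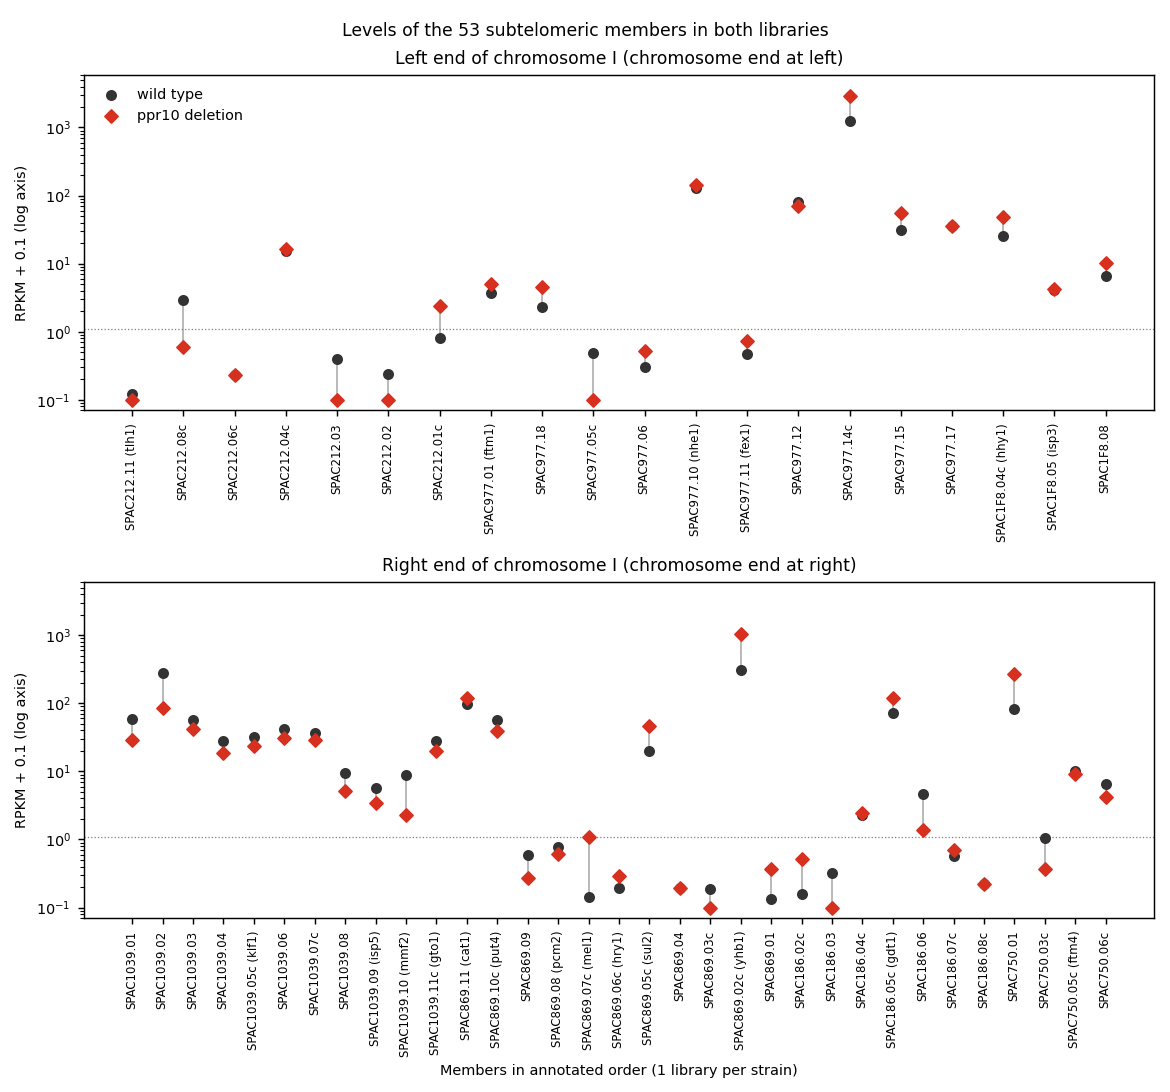
RPKM plus 0.1 on a log axis for each of the 53 members in annotated order, with the chromosome end at the outer side of each panel; circles are the wild-type library, diamonds the deletion library, and the dotted line marks 1 RPKM. SPAC977.14c at the left end and yhb1 at the right end stood highest, at 2904 and 1032 RPKM in the deletion.

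By the rule of size used here, a log2 difference of at least 1 in log2(RPKM + 1), 4 of the 34 members were higher in the deletion library, 4 were lower and 26 lay between. Over all 4986 genes at that level, 3.93% were called, 2.79% higher and 1.14% lower. Ratios had 95% counting intervals wholly above 1 in 12 members and wholly below 1 in 16, against 40.7% and 29.7% of all genes. Intervals were wholly above 2 in 4 members and wholly below 0.5 in 3, against 2.09% and 0.702% of all genes. Both aldo/keto reductase genes, the nitric oxide dioxygenase gene yhb1 and the sulfate transporter gene sul2 were the higher ones. The phosphatase gene SPAC1039.02, mmf2, the isomerase gene SPAC186.06 and the surface protein gene SPAC212.08c were the lower ones. With a pseudocount of 5 RPKM, SPAC1039.02 was the only one of these 4 lower members still past the limit, and mmf2, SPAC186.06 and SPAC212.08c stood at −0.94, −0.60 and −0.51. The share of called genes depends on level. Of 13 members at a mean of 1 to 10 RPKM, 3 were called, near the 19.1% of all genes at that level. Of 13 members from 10 to 50 RPKM, 1 was called (all genes 3.11%), and of 8 members at 50 RPKM or more, 4 were called (all genes 3.21%). The median log2 difference of the 34 was −0.06, against 0.05 for all genes, and their quartiles were wider apart, at −0.54 and 0.66 against −0.17 and 0.26.

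The 2 ends leaned in opposite directions in these libraries, a difference that was not tested. At the left end, 10 of 13 members at that level had positive differences, with a median of 0.36. At the right end, 15 of 21 were negative, with a median of −0.45. Differences below 0 were seen in 42.9% of all genes and differences above 0 in 57.1%. The positive lean was not particular to the left-end members. Of the 20 rows next inward on the left arm, 16 were also positive, with a median of 0.22. The right-end count rests on a single cosmid, SPAC1039, which gave 11 of the 15 negative values. Some near-identical copies were counted at opposite ends. These were SPAC212.01c (left, 0.94) with SPAC750.06c (right, −0.54), and ftm1 (left, 0.36) with ftm4 (right, −0.11). How reads were shared between such copies is not known.

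**Figure D2:**
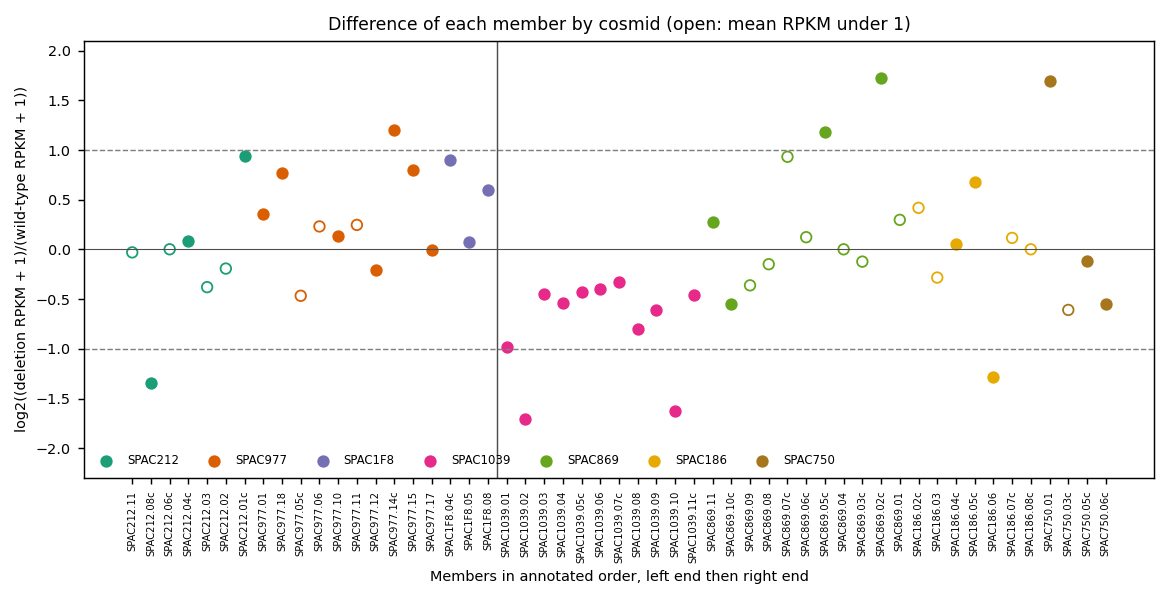
Log2 difference in RPKM + 1, deletion minus wild type, for each member in annotated order (left end, then right end), coloured by cosmid; open circles are members with a mean under 1 RPKM and dashed lines mark a log2 difference of 1 in either direction. All 11 SPAC1039 members lie below 0, between −1.70 and −0.33.

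The SPAC1039 genes encode permeases, enzymes of amino acid metabolism and hydrolases, and all 11 were below their wild-type level. Summed over the cosmid, 984.5 RPM (reads scaled to the library total only; 95% counting interval 969.7 to 999.5) in the wild type became 477.5 (467.1 to 488.0) in the deletion, a ratio of 0.485 (0.472 to 0.498). Without SPAC1039.02, which held the most reads, the ratio was 0.674 (0.651 to 0.698). The counting interval of the ratio lay below 1 for all 11, all of them among the 16 given above. Intervals here cover counting error only, and reads copied by PCR are not independent molecules.

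The gene SPAC1039.02, annotated as a phosphoprotein phosphatase, stood at 279.3 against 85.2 RPKM. It was the most abundant SPAC1039 gene in both libraries, at a ratio of 0.305 (0.292 to 0.319). Next to it, the amino acid permease gene SPAC1039.01 stood at 58.5 against 29.1 RPKM, a ratio of 0.498 (0.458 to 0.541) and a log2 difference of −0.98, just short of the limit. The small gene mmf2 (SPAC1039.10), whose product is annotated as Pmf1-like and linked to isoleucine synthesis, had 57 reads against 14. Its ratio of 0.248 (0.128 to 0.451) was the lowest of the cosmid, while on the log2(RPKM + 1) scale SPAC1039.02 was lower, at −1.70 against −1.62. The coding sequences of mmf2 and of gto1 (SPAC1039.11c), an alpha-glucosidase gene with 27.7 against 19.9 RPKM, overlap by 67 bases, and reads in the overlap cannot be assigned without the strand, which the sources used here leave unstated.

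Members of the same cosmid with fewer reads pointed the same way. The serine acetyltransferase gene SPAC1039.08 had 132 reads against 69, and the amino acid permease gene isp5 had 165 against 97. Their ratios were 0.528 (0.389 to 0.712) and 0.594 (0.457 to 0.768). The carboxylic acid transporter gene SPAC1039.04 stood at 0.677 of the wild-type level. The remaining 5 members had ratios from 0.718 for gto1 to 0.789 for the transaminase gene SPAC1039.07c. Between them lay the D-serine ammonia-lyase gene SPAC1039.06 (41.6 against 31.3 RPKM), the esterase gene SPAC1039.03 (57.1 against 41.4) and klf1, a zinc finger transcription factor gene (31.6 against 23.2).

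The run of values below 0 ended at the next row on both sides. Of the 33 rows next inward on the right arm, 32 were at the level of 1 RPKM. None of the 32 was higher or lower by the rule. Only 3.93% of all genes were, and 9 of the 11 SPAC1039 members were uncalled too. The 32 had a median of 0.04, with 20 differences positive and 12 negative. Counting intervals of the ratio lay wholly above 1 in 12 and wholly below 1 in 7. The lowest ratios, 0.688 for SPAC3G6.05 and 0.690 for spd1, lay within the range of the SPAC1039 members. The highest was 1.69 for erv1. Adjacent to SPAC1039.01, the purine transporter gene SPAC29B12.14c had 2023 reads against 2684, a ratio of 1.34. Toward the chromosome end lie 6 rows of cosmid SPAC922, of which 5 could be read. The nearest, SPAC922.03, stood at 1.09 and SPAC922.04 at 0.949, while the outer 3 were again lower, at 0.743 (SPAC922.05c), 0.653 (SPAC922.06) and 0.638 (atd2, an aldehyde dehydrogenase gene). The 2 negative stretches were thus separated by rows near the wild-type level.

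**Figure D3:**
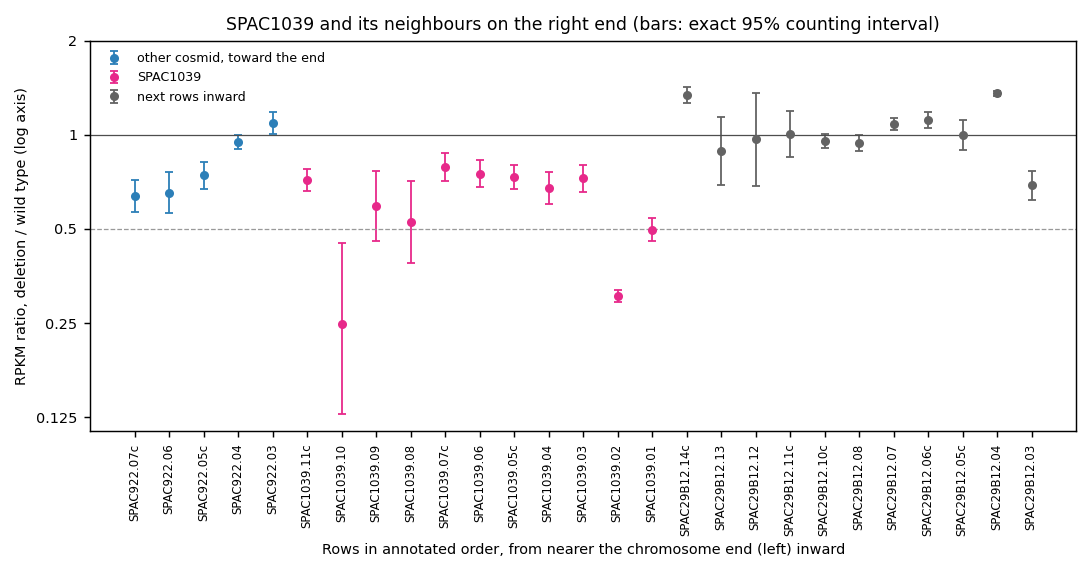
Ratio of RPKM, deletion over wild type, on a log axis with exact 95% counting intervals, for the rows of SPAC922 (blue), the 11 SPAC1039 members (magenta) and the next 11 rows inward (grey) on the right end. Every magenta interval lies below 1, with ratios from 0.248 for mmf2 to 0.789 for SPAC1039.07c, and the grey points lie on both sides of 1.

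The neighbouring cosmid SPAC869 held both active and nearly silent genes. Of its 11 members, 7 were under 1 RPKM on average. The 4 others were transporter genes and yhb1, and 3 of the 4 had positive differences. The gene yhb1 encodes a flavohaemoglobin that converts nitric oxide to nitrate, and its level was 310.3 against 1032 RPKM. That is a ratio of 3.32 (3.24 to 3.42), the largest log2 difference among the 34 members at 1.73. The sulfate transporter gene sul2 went from 20.1 to 46.8 RPKM, at 2.33-fold (2.15 to 2.53). By contrast put4, which encodes a proline permease, had 56.7 against 38.5 RPKM, a ratio of 0.679 (0.628 to 0.734), and cat1, for an arginine and lysine permease, 97.7 against 118.3, a ratio of 1.21 (1.15 to 1.27).

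The 7 weak SPAC869 members had from 1 to 8 reads in the wild type. The melibiase gene mel1, for a secreted alpha-galactosidase, had 1 wild-type and 22 deletion reads. Its ratio of 22.2 has a counting interval from 3.59 to 917, and its mean was under 1 RPKM, so it was not called. An amidase gene, SPAC869.01, had 1 against 8 reads. The urea transporter gene SPAC869.03c had 3 reads against none. The formamidase gene SPAC869.04, the cation-binding HHE domain gene hry1, the protein repair methyltransferase gene pcm2 and the Con-6 family gene SPAC869.09 had at most 8 reads in either library, and differences were not detectable at that depth. A count of 0 in the deletion library allows up to 0.178 RPM if 3 reads are taken as the limit. The exact Poisson interval used for sums would reach higher.

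At the right end's outermost cosmids, SPAC186 and SPAC750, the sums were set by 1 gene each. SPAC186 had 62.3 (58.6 to 66.1) RPM in the wild type and 96.1 (91.5 to 100.9) in the deletion. Most of these were reads of gdt1, whose product belongs to the GDT1-like membrane proteins, with 73.1 against 117.9 RPKM and a ratio of 1.61 (1.49 to 1.75). Without gdt1 the ratio of the summed reads was 0.673 (0.465 to 0.969) in place of 1.54. The isomerase gene SPAC186.06 was the called member, with 43 reads against 12 and a ratio of 0.282 (0.135 to 0.544). SPAC186.04c had 20 against 21 reads. The L-lactate dehydrogenase gene SPAC186.08c had 2 reads in each library, the hydroxyacid dehydrogenase genes SPAC186.07c and SPAC186.02c had 8 against 10 and 1 against 7, and the L-asparaginase gene SPAC186.03 had 4 against 0.

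In SPAC750 the aldo/keto reductase gene SPAC750.01 held most reads, 1388 against 4477. Its level was 83.2 against 271.1 RPKM, a ratio of 3.26 (3.07 to 3.46). The other 3 members pointed down or were too sparse. Their summed ratio was 0.808 (0.674 to 0.968), with the membrane protein genes SPAC750.06c at 92 against 58 reads and ftm4 at 176 against 160, and the methyltransferase gene SPAC750.03c at 7 against 2.

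At the left end the outermost cosmid, SPAC212, was close to silent. Its 7 members together gave 16.7 (14.8 to 18.7) RPM in the wild type and 16.6 (14.8 to 18.7) in the deletion. The telomere-linked helicase gene tlh1 had 2 reads against 0 and the helicase-like gene SPAC212.06c had 1 in each library. SPAC212.03 had 2 against 0 and SPAC212.02 had 1 against 0. No change in either direction was detectable for these 4. The GPI-anchored protein gene SPAC212.08c was the called member, at 40 reads against 7, or 2.80 against 0.495 RPKM, a ratio of 0.177 (0.0668 to 0.399). SPAC212.04c, which lies further inward and encodes a membrane protein of the UPF0494 family, held most of the cosmid's reads at 228 against 241.

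SPAC977 carried the most abundant member. The aldo/keto reductase gene SPAC977.14c had 22734 wild-type and 51775 deletion reads, or 1262 against 2904 RPKM, a ratio of 2.30 (2.26 to 2.34). It made up 36.9% of the members' wild-type reads and 50.2% of their deletion reads. The summed reads of all members were higher in the deletion, at 6111 against 3610 RPM, a ratio of 1.69 (1.68 to 1.71). Without SPAC977.14c the ratio was 1.34 (1.32 to 1.36), and for SPAC977 alone it was 1.07 (1.04 to 1.11) in place of 2.04. Much of the remaining excess was yhb1, at 6795 against 22371 reads. Without yhb1 the right-end members had a ratio of 0.851 (0.836 to 0.867) in place of 1.38. Without SPAC977.14c the left-end members had 1.14 (1.11 to 1.18) in place of 2.03.

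Other SPAC977 genes differed less. The adjacent gene SPAC977.15, for a dienelactone hydrolase family protein annotated with detoxification, had 393 against 686 reads, a ratio of 1.76. The sodium/proton antiporter gene nhe1 had 128.7 against 141.5 RPKM and the L-asparaginase gene SPAC977.12 had 80.3 against 69.6, with log2 differences of 0.14 and −0.20. SPAC977.17, for a channel protein of the MIP superfamily, had 1091 against 1078 reads and a ratio of 0.998 (0.916 to 1.09). The uncharacterised gene SPAC977.18 had 15 against 30 reads and ftm1, of a membrane protein family, 58 against 78. The fluoride channel gene fex1 (6 against 10), SPAC977.06 (2 against 4) and SPAC977.05c (4 against 0) were under 1 RPKM.

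The 3 SPAC1F8 members all had positive differences and none was called. The hydrolase gene hhy1 had 25.5 against 48.4 RPKM, a ratio of 1.90 and a log2 difference of 0.90. SPAC1F8.08 had 40 against 63 reads, at 1.59 (1.05 to 2.43), and isp3, which encodes a spore wall protein, 37 against 39. Among the 10 rows of the same cosmids that were left out, 6 were higher by the rule and 1 was lower, against 2.79% and 1.14% of all genes. These rows were picked by name, so that count describes only them. They include the glycoprotein gene pfl9 (115 against 7723 reads) and, in SPAC1F8, the transporter gene str3 (329 against 2142 reads).

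The members were also grouped by annotated role, with groups drawn up after the values were seen, so the counts describe the members only. Over all genes at the level of 1 RPKM, 57.1% of differences were positive and 42.9% negative, and 2.79% were called higher and 1.14% lower. Of 7 redox and detoxification genes, 4 were at that level, all 4 differences were positive and 3 were called higher, with a median of 1.45. The 3 were yhb1 and the aldo/keto reductase genes SPAC977.14c and SPAC750.01. The latter pair match at 93.1%, so the 3 calls may not be separate observations. Of 8 genes of amino acid and amide metabolism, 5 were at that level, all 5 differences were negative and 1 was called lower, with a median of −0.40. Of these 5, 4 belong to SPAC1039, whose 11 members were all negative whatever their role. Of 11 transport genes, 9 were at that level, 4 positive and 5 negative, and sul2 was the only one called. The amino acid permease genes were among both, with cat1 above and put4, isp5 and SPAC1039.01 below the wild-type level. Of 9 genes of other enzymes, 5 were at that level, 2 were called lower and hhy1 alone was positive. The 6 genes of the UPF0494 and ftm membrane protein families gave no call.

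Copied sequence limits which of these values can be read. A coding match of at least 95% identity over 50% or more of the length was found elsewhere in the reference genome for 14 of the 53 members, and 6 of the 14 were at the level of 1 RPKM. The column headers call the reads unique, yet the left-out row SPAC750.08c, matched at 100% over its whole length by 2 other loci of the reference genome, had 135 against 13 reads. How reads were shared among copies is therefore not known, and the value of a single copied gene is uncertain. None of the 8 called members had such a copy. The 2 aldo/keto reductase genes, SPAC977.14c and SPAC750.01, lie at opposite ends of the chromosome, and both were higher in the deletion. Their loci match at 93.1% over 1056 bases, which runs past the 978 coding bases listed for SPAC750.01. That identity is just under the 95% limit used here. Whether reads of the more abundant SPAC977.14c were counted under SPAC750.01 was not tested, so the 2 values may not be independent.

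Copies were summed where they had a row in the deposited table, so some sums are incomplete. SPAC212.01c had 10 wild-type and 32 deletion reads, a ratio of 3.23 (1.55 to 7.37). Its copy SPAC750.06c, 99.8% identical and at the other end of chromosome I, had 92 against 58, and its copy SPBCPT2R1.04c on chromosome II, 99.9% identical, had 149 against 38. Summed, the 3 genes had 251 against 128 reads, a ratio of 0.515 (0.413 to 0.640), so the direction of SPAC212.01c alone was opposite to that of the summed rows. Its further copies SPBC1348.01 and SPBCPT2R1.01c, at 96.0% identity, are not in that sum. The pair ftm1 and ftm4 summed to 234 against 238 reads, a ratio of 1.03 (0.854 to 1.24). Their copies SPBC1348.02 and SPBPB2B2.19c are not in that sum, as no row was found for them in the deposited table. SPAC977.12 and its copy on chromosome II, SPBPB8B6.05c, summed to 2466 against 2077, at 0.851 (0.802 to 0.902). The asparaginase gene SPAC186.03 and its copy SPBPB21E7.09 summed to 304 against 162 reads, of which all but 4 belonged to the copy. The helicase genes tlh1 and SPBCPT2R1.08c, 99.98% identical, summed to 14 reads against 0, and the counting interval of that ratio reached up to 0.304. Of the 14 reads, 12 were listed under the chromosome II gene.

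Position relative to the ends was compared with other regions. Over all genes at the level of 1 RPKM, 2.79% were called higher and 1.14% lower. The rows next inward on both arms, 53 in all, had 3 called higher and none lower among 52 at the level of 1 RPKM. The 3 were left-arm genes of cosmid SPAC11D3, among them hsp3104, for a glyoxalase-like ThiJ domain protein, at 856 against 2045 reads. Equal numbers of outermost rows were then taken at the ends of chromosomes II and III. These sets leave out no rows, so they are not matched to the members in position or choice. Members reach the 29th row from the left end and the 42nd from the right. They also lack the 10 left-out rows, all 10 at the level of 1 RPKM and 6 of them called higher. With those rows returned the median of the members was 0.10. On chromosome II, 40 of 53 rows were at that level, and 7 were higher and 5 lower, with a median of −0.23. On chromosome III, where the ribosomal DNA lies outermost, 52 of 53 rows were at that level, none was higher and 7 were lower, with a median of −0.11. Weak expression was shared with chromosome II, where 24.5% of rows were under 1 RPKM, against 35.8% of members, 1.89% on chromosome III and 1.77% of all genes. Summed reads at the chromosome II ends went the other way from the members, at 2666 against 1813 RPM, a ratio of 0.680 (0.670 to 0.690). The higher sum of the members rested largely on SPAC977.14c and yhb1. Without yhb1 the right-end members were also below 1, at 0.851, and without SPAC977.14c the left-end members were at 1.14. The gene with most reads at the chromosome II ends was pho84 (SPBC8E4.01c), for a phosphate transporter. Without pho84 the ratio there was 0.783 (0.771 to 0.797).

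**Figure D4:**
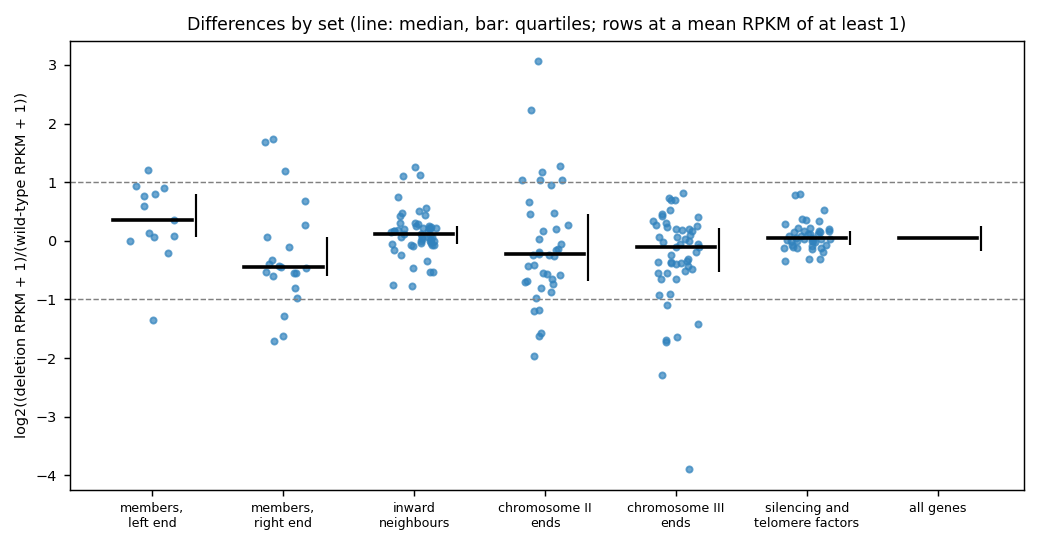
Log2 difference in RPKM + 1, deletion minus wild type, for rows at a mean of at least 1 RPKM in each set; points are genes (not drawn for all genes), horizontal lines the medians and vertical bars the quartiles. The medians are 0.36 and −0.45 for members at the left and right end, −0.23 and −0.11 for the ends of chromosomes II and III, and 0.05 for all genes.

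Genes for silencing and telomere factors were examined as the machinery of these regions. All 43 listed genes were at the level of 1 RPKM and none was called, with a median log2 difference of 0.04 and values from −0.35 to 0.80. Over all genes at that level 3.93% were called, so the lack of calls is near that share and says little about this list. The largest were those of epe1, a JmjC domain protein that opposes heterochromatin spreading (1215 against 2133 reads, log2 0.80), sde2, a splicing regulator (0.79), rap1, a telomere-binding protein (0.52), and poz1, of the shelterin complex (0.37). The histone methyltransferase gene clr4 had 256 against 220 reads and swi6 had 3588 against 3390. For sgo2 and set2, whose products shape the inner subtelomere, the log2 differences were −0.32 and 0.20. The values of clr4, swi6, sgo2 and set2 were singled out after they were seen.

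Base composition was close to that of other genes. The median coding GC content was 39.8% for members and 39.6% for all matched rows. Annotated noncoding RNAs on the opposite strand overlapped 35 of the 53 members, including SPAC1039.02 and yhb1. The share over all genes was not counted, so this is not shown to be particular to the members. With the strand setting unstated, reads from such RNAs cannot be told apart from reads of the gene, and their part in these values was not tested.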

How the data were processed

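Total RNA was prepared using Trizol, and a NEBNext Ultra kit served for the libraries, per the labels' protocols. Per the submitters' processing notes, Bowtie2 2.2.3, TopHat2 2.0.12 and genome build ASM294v2 were used, while the submitters' design text gives 2 other routes, TopHat followed by Cufflinks, and BWA plus an ANOVA. These sources differ, and which route made the counts is not settled; the counting tool, annotation and strand setting were not given in the sources used here. Per the file headers, the authors deposited a count of uniquely mapped reads, an RPKM value and a coverage score per gene and library. The coverage score was not used for results, since it exceeds 100 in 7 genes. A dash was read as 0. RPKM recomputed from the deposited counts and lengths differed by at most 4.99e-07.

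Differences are of log2(RPKM + 1), deletion minus wild type, called at 2-fold where the mean RPKM reached 1. The pseudocount makes differences of weak genes smaller. RPKM ratios have exact Clopper-Pearson and sums exact Poisson 95% intervals (Python 3.11.15, SciPy 1.17.1), which cover counting error only. The scripts were tested on simulated data. Names, gene order and copies (BLAST 2.17.0) came from assembly ASM294v3, a later build, so no coordinates or sequences are printed. The members and lists were chosen with earlier results of these data known. Every member could be named, with fuller values for up to 4 per cosmid by size of difference, the most abundant and those called. Of other lists, up to 4 genes were named by size of difference where the mean RPKM reached 5; further genes were chosen after their values were seen. The deposited gene length, as listed by the authors, is a coding length.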

Additional observations from a re-analysis of the deposited data

How the results depend on the processing

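No result has a replicate check. No paired analysis was possible because there is 1 library for each strain. The 4 higher members gave counts of 4 or 5 under all planned settings. The 4 lower members became 1 with a pseudocount of 5 RPKM (SPAC1039.02) and 2 at a mean RPKM of at least 5. Other planned settings gave 3 to 5. The median of −0.06 stayed between −0.17 and −0.0030 in the planned settings. Settings chosen after seeing the data were the return of the 10 excluded rows, which gave 10 higher members and a median of 0.10, and leaving out each cosmid. Without SPAC869 the higher members were 2. Without SPAC1039 the lower members were 2 and the median was 0.27, whereas without SPAC977 the median was −0.40 and without SPAC1F8 −0.20. Of 170 values of 34 members under 5 settings, no called one changed sign, and SPAC977.17, near 0, was the only member to do so. All 55 values of SPAC1039 members stayed below 0. Median scaling moved all differences by 0.05. The other scalings shifted the libraries against each other by log2 values of 0.04 and −0.009, and a pseudocount cannot change a sign. Called members and SPAC1039 members, the latter at −0.33 or below, could therefore not change sign, and their signs are no check.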
